A study of Mus musculus with 67 samples.

Results

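The Hist1h genes of chromosome 13 were examined as a group of 56 genes, chosen as every row whose gene name starts with Hist1h and whose reference chromosome is 13, of 46983 gene IDs in each RNA-seq table. By name, 6 of them encode linker histone H1, 15 encode H2A, 15 encode H2B, 9 encode H3 and 11 encode H4. On the mm10 build, 24 genes lay between 21715763 and 22043676 (block 1, 328 kb) and 31 genes between 23531050 and 23934851 (block 2, 404 kb). The lone Hist1h2al lay at 51202688 to 51203065. Gli3, the gene that the study's mutants lack, lies on the same chromosome at 15463235 to 15730026, so block 1 starts 5.99 Mb and block 2 7.80 Mb beyond its end.

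RNA-seq was performed on mouse forelimb buds on a Swiss Webster background, before and after the onset of Hedgehog signalling. Whole buds at E9.25 (21 to 23 somites) came from WT embryos (n = 3 libraries) and from Gli3-/- embryos that carry the Xt-J allele on both chromosomes (n = 4), with 4 pairs of buds pooled per library in the sample records. Anterior parts of buds at E10.5 (32 to 35 somites) came from WT (n = 4) and Gli3-/- embryos (n = 3), with 2 pairs pooled per library. The stages therefore also differ in the part of the bud, and that difference cannot be told apart from stage. Xt-J is a mutation of chromosome 13 itself, so loss of Gli3 and any other sequence carried along with the mutant chromosome cannot be told apart here.

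Most genes of this cluster are replication-dependent histone genes. Such genes are expressed in S phase, when new chromatin is packaged. Their transcripts are typically short and intronless and end in a stem-loop bound by SLBP in place of a poly(A) tail. H2A, H2B, H3 and H4 form the nucleosome core and H1 binds the linker DNA. Many copies encode the same protein, and H2A and H2B genes often sit head to head over a shared promoter. Growing limb mesenchyme divides rapidly and transcribes many of these genes.

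All 56 genes were matched to RefSeq (GRCm38.p6) by name and position, and 51 had a promoter window of 250 bases before to 50 bases after the start. RefSeq lists Hist1h2aj as a pseudogene and Hist1h2al as a transcribed pseudogene. The windows of 6 genes are shown. Hist1h2an is an H2A copy that passed the test below. Hist1h2ao and Hist1h2ap are the most abundant H2A copies, and their windows hold an identical stretch of 200 bases that is offset between the 2 windows. In the RNA-seq gene positions, Hist1h2ah and Hist1h2bk start 302 bases apart and point away from each other. Their windows were placed on RefSeq starts, which lie closer together. A run of 277 bases of the Hist1h2ah window is found in the Hist1h2bk window on the opposite strand. Hist1h4i is the H4 copy that differed between genotypes. Capitals mark the CCAAT box, the TATA box (searched as TATAAA) and the core of the histone octamer motif (searched as ATTTGCA), on either strand. The windows are chr13:21787199-21787498 on the minus strand (Hist1h2an), chr13:21810117-21810416 on the plus strand (Hist1h2ao), chr13:21833426-21833725 on the minus strand (Hist1h2ap), chr13:22035594-22035893 on the minus strand (Hist1h2ah), chr13:22035571-22035870 on the plus strand (Hist1h2bk) and chr13:22041313-22041612 on the minus strand (Hist1h4i).
Hist1h2an: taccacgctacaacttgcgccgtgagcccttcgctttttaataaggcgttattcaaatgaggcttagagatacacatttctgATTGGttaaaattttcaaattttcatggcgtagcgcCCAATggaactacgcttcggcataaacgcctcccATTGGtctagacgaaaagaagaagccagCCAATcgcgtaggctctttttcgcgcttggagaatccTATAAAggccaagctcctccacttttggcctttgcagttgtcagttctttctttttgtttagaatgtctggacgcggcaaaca
Hist1h2ao: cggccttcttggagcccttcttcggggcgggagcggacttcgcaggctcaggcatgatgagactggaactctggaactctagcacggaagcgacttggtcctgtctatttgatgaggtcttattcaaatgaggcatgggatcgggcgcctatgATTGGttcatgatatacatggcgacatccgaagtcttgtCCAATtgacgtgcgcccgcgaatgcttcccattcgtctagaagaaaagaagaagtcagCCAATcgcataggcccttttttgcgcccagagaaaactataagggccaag
Hist1h2ap: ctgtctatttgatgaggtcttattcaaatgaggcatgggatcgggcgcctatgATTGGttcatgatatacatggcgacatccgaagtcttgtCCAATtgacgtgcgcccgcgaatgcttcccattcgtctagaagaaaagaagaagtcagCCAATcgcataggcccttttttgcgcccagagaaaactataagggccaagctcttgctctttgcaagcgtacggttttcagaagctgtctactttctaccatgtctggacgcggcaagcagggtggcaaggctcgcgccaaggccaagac
Hist1h2ah: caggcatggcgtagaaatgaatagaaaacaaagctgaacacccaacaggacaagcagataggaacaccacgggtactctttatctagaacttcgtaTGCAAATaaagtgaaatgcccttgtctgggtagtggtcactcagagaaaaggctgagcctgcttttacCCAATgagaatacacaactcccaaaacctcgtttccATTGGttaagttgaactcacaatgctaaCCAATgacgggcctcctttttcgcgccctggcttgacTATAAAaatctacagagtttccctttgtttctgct
Hist1h2bk: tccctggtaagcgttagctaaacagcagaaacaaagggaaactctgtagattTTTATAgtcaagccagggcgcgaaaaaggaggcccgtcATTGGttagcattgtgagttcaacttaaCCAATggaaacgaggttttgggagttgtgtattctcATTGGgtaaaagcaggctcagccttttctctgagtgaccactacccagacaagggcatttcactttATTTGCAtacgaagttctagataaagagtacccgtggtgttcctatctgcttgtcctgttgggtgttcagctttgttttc
Hist1h4i: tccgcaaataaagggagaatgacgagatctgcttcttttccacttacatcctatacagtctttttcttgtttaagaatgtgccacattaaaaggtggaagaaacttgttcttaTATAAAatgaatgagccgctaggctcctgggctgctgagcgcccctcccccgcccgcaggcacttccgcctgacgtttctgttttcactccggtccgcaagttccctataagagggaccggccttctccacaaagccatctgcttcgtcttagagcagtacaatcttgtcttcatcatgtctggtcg

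CCAAT was found on either strand in all windows of H1 (6), H2A (13), H2B (14) and H3 (7) genes, in 3 of 11 H4 windows, and in 37.4% of all 32851 RefSeq windows of the same length. Hist1h4i had none. TATAAA was found in 31 of 51 Hist1h windows, against 13.6% of all windows. ATTTGCA was found in 5 of 13 H2A and 5 of 14 H2B windows and in no H1, H3 or H4 window, against 4.02% of all windows. A match to such short letters is a description only. The median identity of H2A windows was 51.0% over 78 pairs. By this measure, the most alike windows of any type were those of inverted copies. The Hist1h2bq and Hist1h2br windows were identical (100%), and those of Hist1h4m and Hist1h4n were 99.0% identical.

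Libraries held an estimated 38.1 to 56.8 M reads, and a TPM of 1 equalled 20.7 to 29.3 reads per kilobase. A value of the 50 Hist1h genes with a span under 1 kb rested on a median of 59.9 estimated reads (range 0 to 2122). Gli3 was lower in every E10.5 Gli3-/- library than in any E10.5 WT library, at 38.7 to 40.9 TPM against 73.4 to 89.7 TPM (log2 fold change -1.01, limma adjusted p = 0.00034). At E9.25, the WT libraries gave 44.2, 15.8 and 44.6 TPM and the Gli3-/- libraries 14.3, 20.6, 20.8 and 19.1 TPM (-0.74, adjusted p = 0.223). For Gli3, WT replicate 2 of E9.25 thus lay within the range of the mutants and against its label, and the Hist1h calls at E9.25 and with stage in WT are also given without it. The sources used here do not say which part of the Gli3 transcript the remaining reads cover.

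Of the 56 genes, 54 reached a TPM of 1 in at least 1 library and 45 reached it in all 14. TPM is scaled by gene length, so levels were set side by side between genes. Whether poly(A) RNA was selected and how reads of near-identical copies were divided is not stated, so such comparisons are uncertain. H2A copies were the most abundant, with a median over genes of 22.9 TPM for the mean of 14 libraries, against 2.34 TPM for H1, 4.34 TPM for H2B, 5.34 TPM for H3 and 4.39 TPM for H4. These means pool both genotypes, and H2A levels were higher in Gli3-/- libraries, so the gap was narrower in WT. In E9.25 WT the mean sum was 175 TPM over the 15 H2A genes and 47.6 TPM over the 15 H2B genes. Genes known for their use in testis were low. Hist1h2aa was listed at 0 in every library and Hist1h1t did not exceed 0.39 TPM, while Hist1h2ba, the testis H2B, was at 0.43 to 2.26 TPM.

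**Figure D1:**
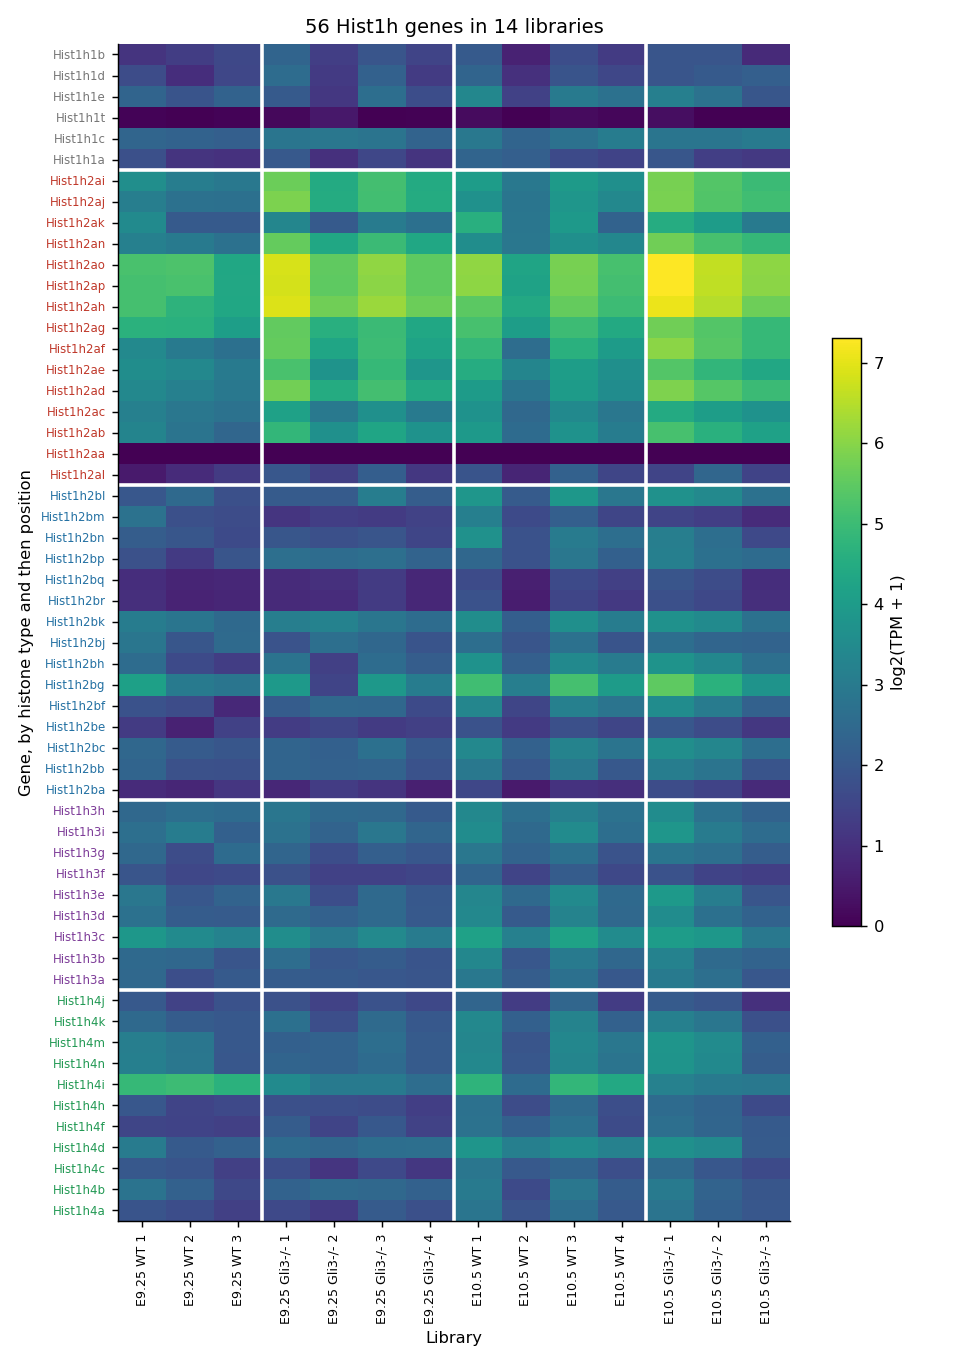
Level of each of the 56 Hist1h genes (rows, by histone type and then position) in the 14 libraries (columns, by group), as log2(TPM + 1). The block of H2A rows is brighter in the Gli3-/- columns at both stages, Hist1h4i is darker there than in the WT columns other than E10.5 WT replicate 2, and Hist1h2aa is at 0 throughout.

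The first question was how the transcripts divide among histone types in WT and Gli3-/- buds. H2A transcripts made up a larger share of the cluster's output in every Gli3-/- library than in any WT library. Summed H2A transcripts at E9.25 were 215, 184 and 126 TPM in WT and 741, 302, 467 and 297 TPM in Gli3-/- libraries. At E10.5 they were 368, 128, 322 and 208 TPM in WT and 907, 607 and 418 TPM in Gli3-/- libraries. No Gli3-/- library overlapped the WT range of its stage. Since H2A, H2B, H3 and H4 are packaged together, the sum of H2A was also divided by the sum of H2B, H3 and H4 in the same library.

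That ratio was 1.11, 1.26 and 1.02 in E9.25 WT libraries and 4.83, 2.66, 3.06 and 2.83 in E9.25 Gli3-/- libraries. It was 1.16, 1.11, 1.09 and 1.21 in E10.5 WT libraries and 2.87, 2.72 and 3.35 in E10.5 Gli3-/- libraries. The groups were far apart at each stage, at 1.13 ± 0.121 (SD, n = 3) against 3.35 ± 1.00 (n = 4) and at 1.14 ± 0.0515 (n = 4) against 2.98 ± 0.329 (n = 3). As a share of all Hist1h transcripts, H2A made up 48.1% to 54.1% in the 7 WT libraries and 70.6% to 80.9% in the 7 Gli3-/- libraries. E9.25 WT replicate 2, whose Gli3 level went against its label, had a WT-like ratio of 1.26. Because the ratio was formed from the genes themselves, no test was made on it.

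The remaining types gave no such split. Summed H2B was 47.6 ± 15.4 TPM in E9.25 WT and 53.3 ± 11.4 TPM in Gli3-/- buds, and 91.6 ± 44.3 against 100.1 ± 43.0 TPM at E10.5. Summed H3 was 43.3 ± 7.73 against 38.5 ± 8.79 TPM at E9.25 and 60.0 ± 22.8 against 59.8 ± 27.2 TPM at E10.5. Both types overlapped between genotypes by most of their range. Summed H1 was 12.4 ± 2.00 against 16.1 ± 5.47 TPM and then 19.2 ± 6.86 against 19.3 ± 3.40 TPM. Summed H4 was 63.3 ± 13.7 against 39.4 ± 6.42 TPM at E9.25, with no overlap, and 73.8 ± 30.6 against 61.5 ± 25.8 TPM at E10.5. Without Hist1h4i, the H4 sums were 35.0 ± 11.5 against 32.0 ± 5.03 TPM and 54.1 ± 21.4 against 54.3 ± 25.1 TPM, so the E9.25 gap lay in that gene.

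**Figure D2:**
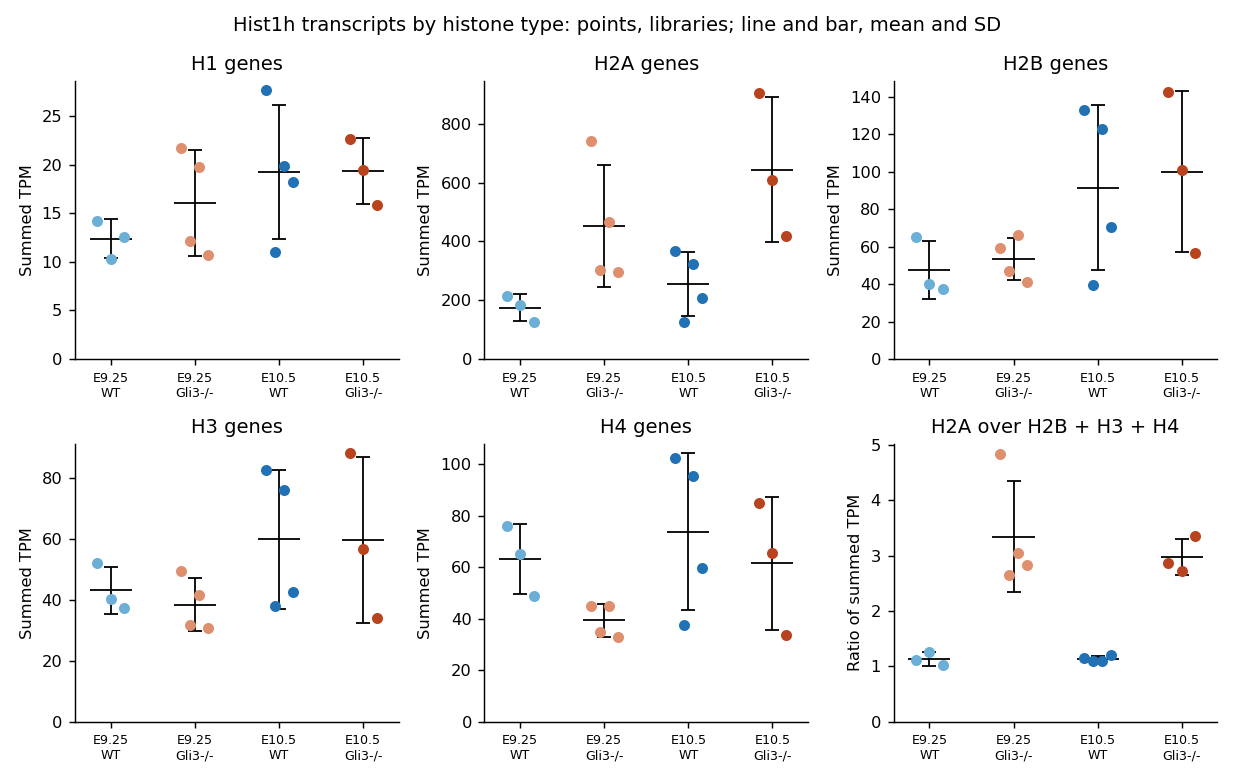
Summed TPM of the Hist1h genes of each histone type, and the ratio of summed H2A to summed H2B, H3 and H4, in each library (points) with the mean and SD of each group. H2A sums and the ratio are higher in all 7 Gli3-/- libraries than in the WT libraries of their stage, and H2B and H3 sums overlap.

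The sum of all Hist1h transcripts varied widely within a group, from 254 TPM in E10.5 WT replicate 2 to 714 TPM in E10.5 WT replicate 1, and up to 1245 TPM in E10.5 Gli3-/- replicate 1. Over the same libraries, the summed level of 22 S phase genes stayed between 3082 and 3675 TPM. E10.5 WT replicate 2 had the lowest H1, H2A, H2B, H3 and H4 sums of its group, so its low total was shared by all types. In such pooled tissue, fewer cells of a kind and less RNA per cell cannot be told apart. The sources used here do not say whether poly(A) RNA was selected, and replication histone transcripts normally lack a poly(A) tail, so these levels are those of the transcripts that this preparation retained.

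Single genes were then tested between genotypes. At E9.25, 52 of the 56 genes passed the filter (TPM no lower than 1 in 3 or more libraries), and 2 of them passed the test across all genes (limma, Benjamini-Hochberg adjusted p below 0.05), where 0.136% of all 14760 genes passed. Hist1h2aj, an H2A copy, rose, as 0.108% of all genes did, and Hist1h4i, an H4 copy, fell, as 0.0271% of all genes did. A further 13 genes were at an unadjusted p below 0.05, which makes 15 of 52 against 22.0% of all genes. Of those 15 genes, 11 were H2A copies and all 11 were higher in Gli3-/- buds. Among these 11, Hist1h2al was at 0.44, 0.86 and 1.41 TPM in the WT libraries. It passed the filter only through the Gli3-/- libraries, so no weight is placed on its E9.25 change. Without WT replicate 2, whose Gli3 level went against its label, Hist1h4i alone passed, and the median log2 fold change was 1.25 for H2A genes and -0.06 for the other Hist1h genes.

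The median log2 fold change of the 14 H2A genes tested was 1.20 at E9.25, against 0.23 over all genes tested. All 14 lay above that median of all genes, with values from 0.26 to 2.14. They include Hist1h2al, on which no weight is placed at this stage. For 10 of them, every Gli3-/- library exceeded every WT library, where 9.97% of all genes did so. Hist1h4i and the H2B gene Hist1h2bm were separate in the lower direction, against 3.36% of all genes. The medians were 0.42 for H1, 0.17 for H2B, -0.12 for H3 and -0.05 for H4. Relative to the median gene, which sat above 0 at this stage, the H2A median was 0.97 and the H3 median was -0.35.

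At E10.5, 54 genes passed the filter and 4 passed the test, where 4.77% of all 15654 genes passed. All 4 were H2A copies that rose, against 1.84% of all genes in that direction. No Hist1h gene fell by this test (limma), against 2.93% of all genes, although 2 genes that were lower had an unadjusted p below 0.05. An unadjusted p below 0.05 was reached by 14 of 54 genes in all, against 19.6% of all genes, and 12 of the 14 were H2A copies. The H2A median was 1.34 over 14 genes, against -0.02 over all genes, with values from 0.18 to 1.96. In 8 of them the genotypes did not overlap, against 7.87% of all genes in that direction, and 1 Hist1h gene, Hist1h2bm, was separate in the lower direction, against 11.5% of all genes. The medians of the other types lay between 0.01 (H4 and H3) and 0.17 (H2B).

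The libraries of the 2 stages were separate, so each gene was read in independent libraries at each stage. In 7 genes, all of them H2A copies (Hist1h2ai, Hist1h2aj, Hist1h2an, Hist1h2ah, Hist1h2af, Hist1h2ad and Hist1h2ab), every Gli3-/- library exceeded every WT library at both stages, where 1.11% of the 14331 genes tested at both stages did so. In 1 gene, Hist1h2bm, every Gli3-/- library was below every WT library at both stages, against 0.593% of all genes. None of the H1, H3 or H4 genes met either condition.

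**Figure D3:**
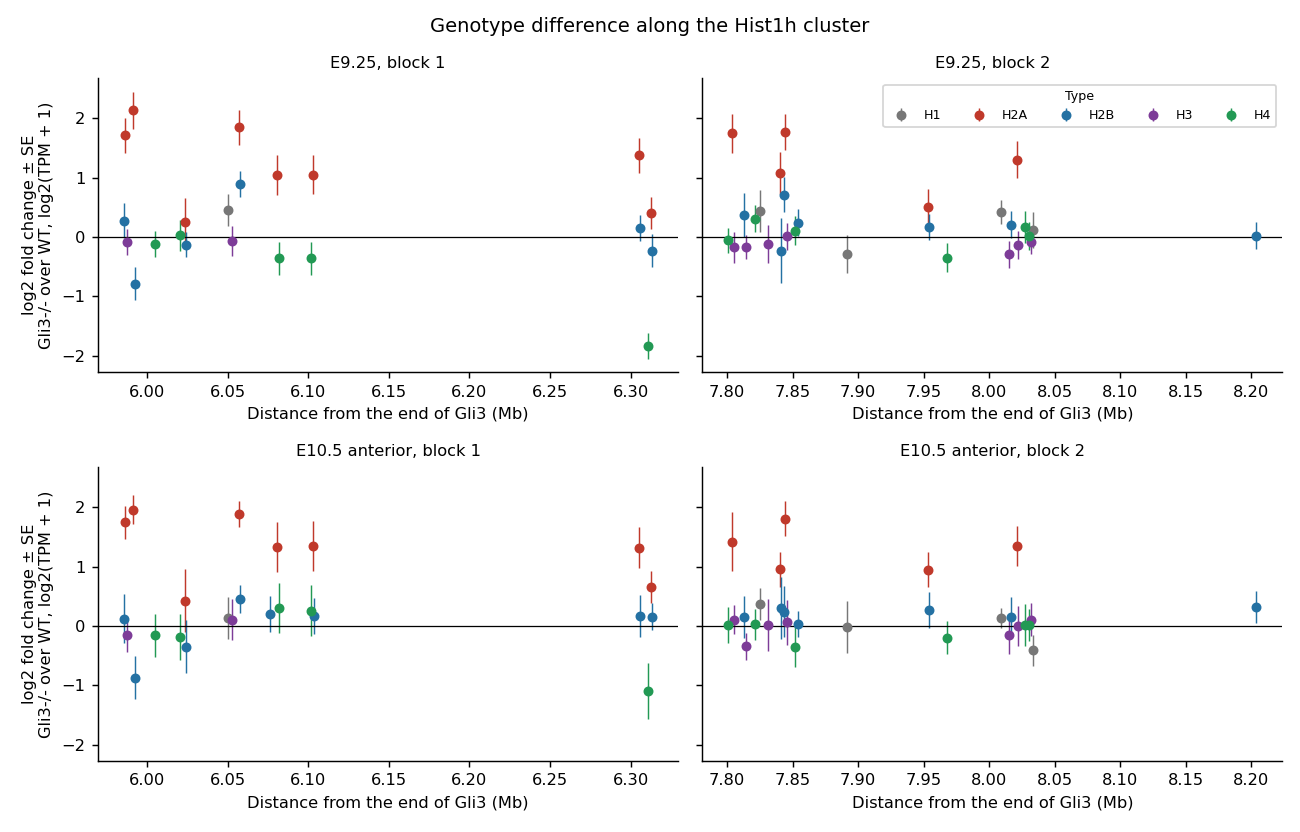
Log2 fold change of Gli3-/- over WT on the log2(TPM + 1) scale, with its SE, for each tested gene of block 1 and block 2 against its distance from the end of Gli3 in Mb, at E9.25 (top) and E10.5 (bottom). Most H2A genes lie above the other types in both blocks, except that Hist1h2ak, Hist1h2ag and Hist1h2ac lie among or below some of them, and Hist1h4i and Hist1h2bm lie below 0.

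Position along the cluster did not separate the H2A genes that differed. The median of the 8 tested H2A genes of block 1 was 1.22 at E9.25 and 1.34 at E10.5. That of the 5 of block 2 was 1.30 and 1.35. Hist1h2al, the pseudogene outside the cluster, gave 0.78 and 0.18 and its groups overlapped at both stages. Within the cluster, 138 other listed genes lie between the Hist1h genes. Of these, 7 (E9.25) and 11 (E10.5) were tested and none passed, with 2 and 4 at an unadjusted p below 0.05, against 22.0% and 19.6% of all genes. Between Gli3 and the first Hist1h gene lie 85 listed genes, of which 26 and 25 were tested, and 1 of them, Gpx6, which encodes a glutathione peroxidase, was called higher at each stage, against 0.108% and 1.84% of all genes in that direction.

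Hist1h2aj rose by the largest factor at both stages among the tested Hist1h genes. Its level was 7.77, 5.60 and 5.47 TPM in E9.25 WT libraries and 57.4, 21.7, 32.9 and 21.3 TPM in E9.25 Gli3-/- libraries. At E10.5 it was 12.1, 6.21, 13.2 and 9.57 TPM in WT and 55.9, 39.0 and 32.2 TPM in Gli3-/- libraries. The lowest Gli3-/- library exceeded the highest WT library by a wide margin at both stages. The log2 fold change was 2.14 ± 0.31 (SE; limma adjusted p = 0.038) at E9.25 and 1.96 ± 0.25 (adjusted p = 0.00257) at E10.5. The E9.25 call was lost without WT replicate 2, without WT replicate 3, without Gli3-/- replicate 1 or without Gli3-/- replicate 3, and also with no filter, with median-of-ratios scaling or without a trend. The E10.5 call was kept in each of these cases and whichever E10.5 library was left out. A gene on the opposite strand, AL589651.2, overlaps Hist1h2aj, and the sources used here do not say whether reads were assigned by strand.

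Hist1h2an gave 8.10, 6.91 and 5.67 TPM in E9.25 WT libraries and 47.0, 19.6, 30.4 and 19.4 TPM in E9.25 Gli3-/- libraries. At E10.5 it gave 11.1, 6.41, 11.5 and 9.33 TPM in WT and 51.4, 35.6 and 28.2 TPM in Gli3-/- libraries. Again the genotypes did not overlap. Its log2 fold change was 1.85 ± 0.29 (adjusted p = 0.0517) at E9.25, just outside the threshold, and 1.88 ± 0.22 (adjusted p = 0.00197) at E10.5.

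Hist1h2ai and Hist1h2ad behaved alike. Hist1h2ai was at 6.55 to 11.3 TPM in E9.25 WT and 21.2 to 49.4 TPM in Gli3-/- libraries, and at 6.61 to 15.4 against 30.8 to 55.1 TPM at E10.5, where its log2 fold change was 1.74 ± 0.27 (adjusted p = 0.00789). Hist1h2ad was at 6.66 to 9.58 against 20.4 to 52.7 TPM and then at 6.16 to 15.2 against 30.3 to 58.1 TPM, with a log2 fold change of 1.81 ± 0.30 (adjusted p = 0.0102) at E10.5. At E9.25 the fold changes were 1.72 (adjusted p = 0.0783) and 1.77 (adjusted p = 0.0721). Neither passed there, and neither overlapped between genotypes. The E10.5 calls of both genes were lost with no filter on low TPM and also with the replicate block (adjusted p up to 0.0559 and 0.0669 over the alternatives).

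These 4 copies had nearly the same level in each library. Within a library, the highest of Hist1h2ai, Hist1h2aj, Hist1h2an and Hist1h2ad exceeded the lowest by 1.07 to 1.45 times, while their sum ran from 24.4 to 221 TPM over the libraries. Hist1h2ai and Hist1h2aj lie in block 1, and so does Hist1h2an, while Hist1h2ad lies in block 2, more than 1 Mb away. The sources used here do not say how reads that match several near-identical copies were divided, so the values of single copies are uncertain and the 4 calls may not be 4 separate measurements. With the 4 genes left out, the ratio of H2A to H2B, H3 and H4 was still 0.825 to 1.07 in the 7 WT libraries and 1.92 to 3.49 in the 7 Gli3-/- libraries.

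The most abundant H2A copies were Hist1h2ao and Hist1h2ap, whose windows are printed above. Hist1h2ao was at 36.2, 37.5 and 19.6 TPM in E9.25 WT and 115.8, 44.9, 67.0 and 44.4 TPM in E9.25 Gli3-/- libraries. At E10.5 it was at 67.0, 18.2, 54.5 and 35.4 TPM in WT and 157.2, 97.9 and 65.3 TPM in Gli3-/- libraries. The groups were separate at E9.25, and at E10.5 the lowest Gli3-/- library lay just below the highest WT library. The log2 fold changes were 1.05 (adjusted p = 0.217) and 1.33 (adjusted p = 0.117), and neither passed. Hist1h2ap, its inverted copy, gave 1.06 and 1.35, and the quotient of the 2 genes was 0.997 to 1.05 in every library.

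Some other H2A copies overlapped between genotypes. Hist1h2ak was at 10.3, 3.18 and 3.16 TPM in E9.25 WT and 9.31, 3.17, 7.30 and 5.54 TPM in E9.25 Gli3-/- libraries. At E10.5 it was at 23.5, 6.32, 14.2 and 3.91 TPM in WT and 21.9, 15.4 and 7.04 TPM in Gli3-/- libraries. The genotypes overlapped at both stages, with log2 fold changes of 0.26 (95% interval -0.63 to 1.14) and 0.42 (-0.78 to 1.62). The intervals do not exclude a rise of the size seen in Hist1h2ao. Hist1h2ag gave 0.40 and 0.65 and also overlapped, while Hist1h2ac gave 0.51 with overlap at E9.25 and 0.95 without overlap at E10.5. These 3 genes were chosen for description after their values were seen, and so were Hist1h2ah, Hist1h2af, Hist1h2ab and Hist1h2ae. For the last 4, the log2 fold changes were 1.09 to 1.75 at E9.25 and 0.96 to 1.42 at E10.5, and none of the 4 passed. Hist1h2ah, Hist1h2af and Hist1h2ab did not overlap between genotypes at either stage, while Hist1h2ae overlapped at E10.5 only.

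Hist1h4i changed in the opposite direction. Its level was 28.9, 31.4 and 24.5 TPM in E9.25 WT and 10.2, 7.0, 7.12 and 5.15 TPM in E9.25 Gli3-/- libraries. At E10.5 it was 25.9, 4.93, 27.6 and 20.4 TPM in WT and 8.23, 6.86 and 6.64 TPM in Gli3-/- libraries. The genotypes were separate at E9.25, and at E10.5 all but WT replicate 2 exceeded the Gli3-/- libraries. The log2 fold change was -1.83 ± 0.22 (adjusted p = 0.0125) at E9.25 and -1.11 ± 0.47 (adjusted p = 0.239) at E10.5. Without E10.5 WT replicate 2, the E10.5 value was -1.63 (adjusted p = 0.0011), so that library decided the call there. The E9.25 call was lost without WT replicate 3, without Gli3-/- replicate 3 or with no filter. E10.5 WT replicate 2 also had the lowest sum of Hist1h transcripts of all 14 libraries.

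In E9.25 WT buds Hist1h4i was the most abundant H4 copy by far and made up 38.0% to 50.2% of all H4 transcripts of the cluster. In E9.25 Gli3-/- buds it made up 15.7% to 22.7%. At E10.5 the shares were 13.1% to 34.2% in WT and 9.69% to 19.6% in Gli3-/- libraries, which overlapped. The other 10 H4 genes gave log2 fold changes from -0.35 to 0.31 in the E9.25 buds and from -0.35 to 0.30 in the E10.5 buds, and none passed or had an unadjusted p below 0.05 (limma). Hist1h4m and Hist1h4n, which are inverted copies, differed from each other by a factor of 0.903 to 1.08. Hist1h4d, the H4 copy next in mean level, gave 0.11 at E9.25 and -0.35 at E10.5. Its 95% intervals (-0.43 to 0.65 and -1.12 to 0.42) held 0.

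**Figure D4:**
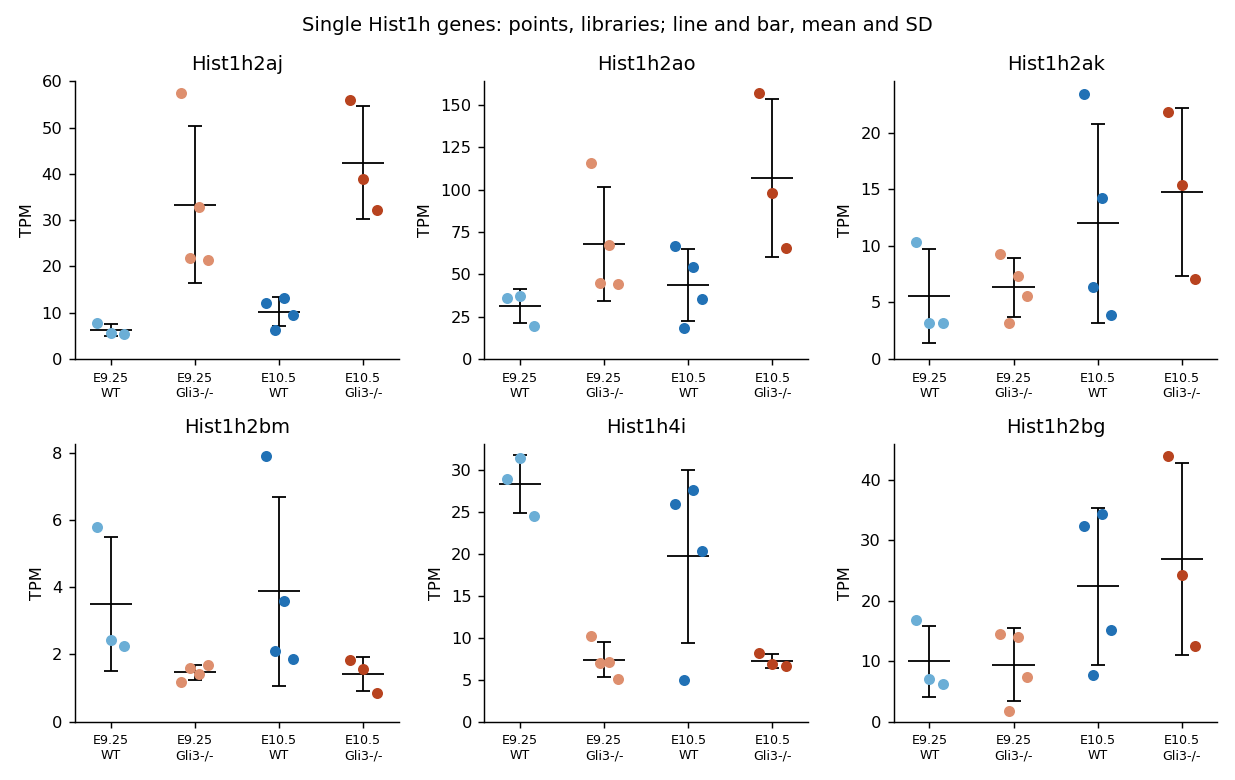
Level in TPM of 6 Hist1h genes in each library (points), with the mean and SD of each group. Hist1h2aj is higher in every Gli3-/- library and Hist1h2bm lower, Hist1h2ak and Hist1h2bg overlap, and Hist1h4i in E10.5 WT replicate 2, at 4.93 TPM, lies below the Gli3-/- libraries.

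Among H2B genes, none passed in a genotype comparison at either stage. An unadjusted p below 0.05 (limma) was reached by 3 of 13 tested at E9.25 (22.0% of all genes) and by 1 of 15 at E10.5 (19.6% of all genes). Of the 3 at E9.25, Hist1h2bp and Hist1h2bf were higher and Hist1h2bm was lower. Hist1h2bp, the head-to-head partner of Hist1h2an, was at 1.39 to 2.77 TPM in E9.25 WT and 4.01 to 5.34 TPM in E9.25 Gli3-/- libraries, without overlap, and its log2 fold change was 0.90 (adjusted p = 0.155) at E9.25 and 0.45 with overlap at E10.5. Hist1h2bf gave 0.72 (adjusted p = 0.22) and 0.24 and overlapped at both stages. At E9.25 Hist1h2bf passed the filter only through the Gli3-/- libraries. Hist1h2bp was described after its values were seen. Hist1h2bm was the H2B gene whose groups did not overlap at either stage. It was at 5.79, 2.43 and 2.26 TPM in E9.25 WT and 1.18, 1.58, 1.42 and 1.70 TPM in E9.25 Gli3-/- libraries, and at 7.91, 2.11, 3.60 and 1.87 against 1.85, 1.55 and 0.87 TPM at E10.5. The margin was narrow, with log2 fold changes of -0.78 (adjusted p = 0.217) and -0.87 (adjusted p = 0.223). Hist1h2bg, the most abundant H2B copy, was at 6.18 to 16.7 TPM in E9.25 WT and 1.85 to 14.5 TPM in Gli3-/- libraries, and at 7.66 to 34.3 against 12.5 to 43.8 TPM at E10.5. Hist1h2bk, the next most abundant, gave 0.16 and 0.17. No H1 or H3 gene passed, had an unadjusted p below 0.05 (limma) or was separate at either stage. Hist1h1c and Hist1h1e, the leading linker histone genes, gave 0.42 and -0.29 at E9.25 and 0.13 and -0.01 at E10.5, and Hist1h3c and Hist1h3i, the leading H3 genes, gave -0.29 and -0.07 and then -0.15 and 0.10.

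Head-to-head pairs set an H2A and an H2B gene beside each other. There were 12 such pairs, with starts 236 to 306 bases apart in the RNA-seq gene positions. Both partners were tested in 9 pairs (E9.25) and 11 pairs (E10.5), and in all of these the H2A partner had the larger log2 fold change. The difference between partners had a median of 1.05 (0.34 to 2.92) at E9.25 and 1.15 (0.50 to 2.83) at E10.5. No test was made over pairs, since the pairs come from the same libraries and how reads of near-identical copies were divided is not stated. The widest gap was that of Hist1h2aj and Hist1h2bm, whose quotient was 1.34 to 2.42 in E9.25 WT and 12.6 to 48.7 in E9.25 Gli3-/- libraries, and 1.52 to 5.12 against 25.1 to 37.2 at E10.5.

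Hist1h2ah and Hist1h2bk, whose shared sequence is printed above, showed the same within a pair of abundant genes. Hist1h2ah was at 34.8, 25.3 and 19.6 TPM in E9.25 WT and 119.7, 52.2, 72.6 and 49.7 TPM in E9.25 Gli3-/- libraries. Hist1h2bk was at 7.30, 6.19 and 4.67 TPM in E9.25 WT and 7.79, 8.40, 6.37 and 5.00 TPM in E9.25 Gli3-/- libraries. The H2A partner was separate and the H2B partner overlapped. Their quotient was 4.09 to 4.76 against 6.22 to 15.4 at E9.25 and 3.86 to 5.68 against 8.78 to 11.5 at E10.5.

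**Figure D5:**
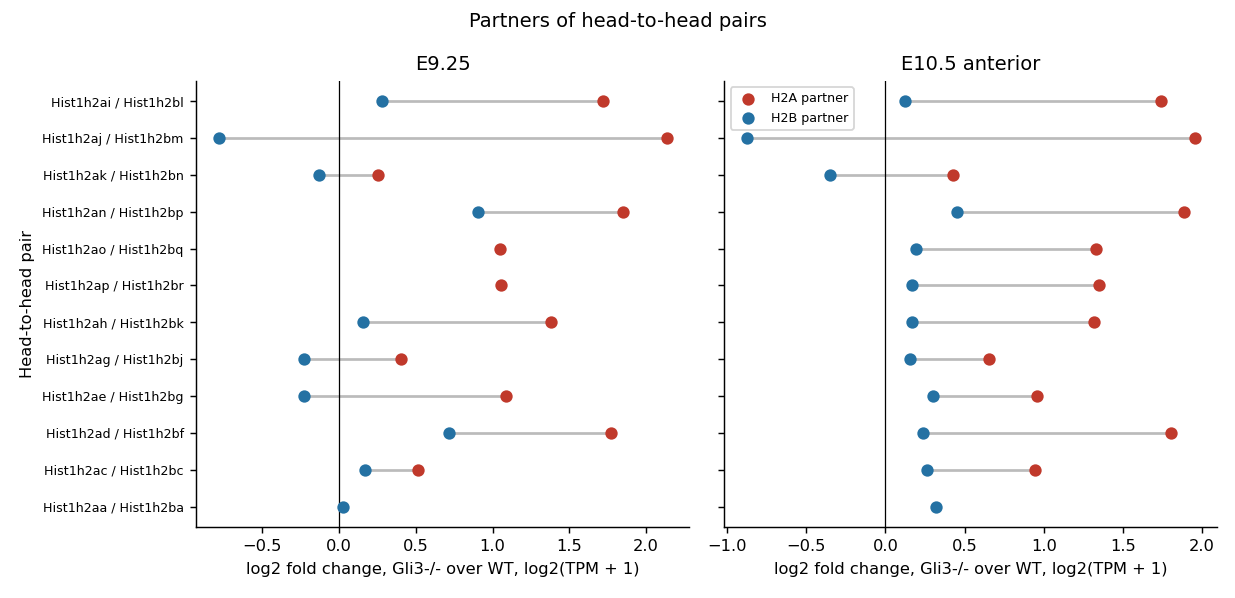
Log2 fold change of Gli3-/- over WT on the log2(TPM + 1) scale for the H2A and the H2B partner of each of the 12 head-to-head pairs, at E9.25 and E10.5. A line joins partners that were both tested, and the H2A point lies to the right in every joined pair.

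The change with stage was examined next, from whole buds at E9.25 to anterior buds at E10.5. In WT, 5 of 54 tested Hist1h genes rose and none fell, where 48.7% of all 15444 genes passed (38.1% higher and 10.6% lower). An unadjusted p below 0.05 was reached by 11 Hist1h genes, all higher, against 57.9% of all genes. In 3 genes, Hist1h4d, Hist1h4f and Hist1h3h, the stages did not overlap, against 41.5% of all genes in that direction. The 5 genes that passed (limma) were Hist1h4d, Hist1h4f, Hist1h2bh, Hist1h2bf and Hist1h2bc, with log2 fold changes of 0.77 to 1.26. Hist1h2bf was at 0.78 TPM in its lowest E9.25 WT library and passed the filter only through the E10.5 libraries. No weight is therefore placed on its WT call. In Gli3-/- buds 3 of 54 rose and none fell, where 25.0% of all 15434 genes passed (15.8% higher and 9.17% lower). These were Hist1h2bc, Hist1h2bl and Hist1h2bh. An unadjusted p below 0.05 was reached by 14 Hist1h genes, all higher, against 37.2% of all genes. These comparisons share their libraries with those of genotype.

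In both genotypes 52 of the 54 genes had a log2 fold change above 0, and 38 in WT and 48 in Gli3-/- buds lay above the median of all genes. The median over members was 0.45 in WT, against 0.34 over all genes, and 0.48 in Gli3-/- buds, against 0.06 over all genes. By type, the medians ran from 0.39 (H3) to 0.49 (H2B) in WT and from 0.18 (H1) to 0.53 (H4) in Gli3-/- buds. H2A copies did not stand apart, at 0.43 and 0.46, and none of them passed. Under median-of-ratios scaling, the WT median was lower, at 0.0985 for H2A and 0.1735 for the other Hist1h genes, against 0.021 over all genes. The largest values in WT were those of Hist1h2bf (1.26 ± 0.44, adjusted p = 0.0422), Hist1h2bh (1.26 ± 0.40, adjusted p = 0.0299) and Hist1h2bl (1.08 ± 0.42, adjusted p = 0.06). That of Hist1h2bf carries no weight, as said above. With the replicate block the WT calls of Hist1h2bf and Hist1h2bc were lost.

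Hist1h2bf was at 2.60, 2.22 and 0.78 TPM in E9.25 WT and 9.20, 1.86, 8.16 and 6.00 TPM in E10.5 WT libraries. Hist1h2bh was at 4.96, 2.14 and 1.51 TPM and then at 12.2, 3.63, 10.01 and 7.24 TPM. In both genes E10.5 WT replicate 2 was the lowest library of its stage and overlapped E9.25. Hist1h4d was at 7.21, 3.23 and 3.82 TPM in E9.25 WT and 13.03, 7.94, 10.6 and 8.28 TPM in E10.5 WT libraries, with no overlap, and its log2 fold change was 0.97 ± 0.26 (adjusted p = 0.0161). At the other end were Hist1h4i at -0.72, Hist1h2bj at -0.16 and Hist1h2bm at 0.05, none of which passed.

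The counts with stage rested on single libraries. Without E10.5 WT replicate 2, 20 of 54 genes rose in WT, among them H2A copies, against 34.1% of all genes. Without E9.25 WT replicate 2 it was 4 (33.6% of all genes), namely Hist1h2bf, Hist1h2bl, Hist1h4d and Hist1h4f, so the calls of Hist1h2bh and Hist1h2bc were lost. The count was 0 without E9.25 WT replicate 3, 1 without E10.5 WT replicate 1 or 3, and 2 without E10.5 WT replicate 4, where 26.2% to 34.4% of all genes were higher. In Gli3-/- buds it was 17 without E10.5 replicate 3 (9.21% of all genes) and 12 without E9.25 replicate 1 (15.6%). It was 1 without E9.25 replicate 2 and 0 without E9.25 replicate 4 or E10.5 replicate 1 or 2, where 8.39% to 19.0% of all genes were higher. The interaction of stage and genotype (limma) called 0 of 54 Hist1h genes, where 2.13% of all 16368 genes passed (0.477% higher and 1.65% lower). The count of Hist1h genes with an unadjusted p below 0.05 was also 0, against 21.0% of all genes, and the median was 0.04 over the H2A genes and -0.24 over all genes. The smallest adjusted p of a Hist1h gene in it was 0.421.

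Other gene groups of the same process were set beside the cluster. Over all genes, an unadjusted p below 0.05 (limma) was reached between genotypes by 22.0% at E9.25 and by 19.6% at E10.5. The replication histone genes outside chromosome 13 (Hist2h, Hist3h and Hist4h, 15 genes) were low, with only 4 tested at E9.25 and 6 at E10.5. None of them passed between genotypes (0 and 1 at an unadjusted p below 0.05, limma), with medians of -0.11 and 0.14. Hist3h2a, which encodes an H2A, rose with stage by 0.78 in WT and 1.06 in Gli3-/- buds, where 38.1% and 15.8% of all genes rose. Hist2h2be, which encodes an H2B, rose by 0.72 in both genotypes. In each genotype Hist2h2be passed the filter only through the E10.5 libraries, so no weight is placed on its change. Hist3h2ba was at 0.058 to 0.723 TPM in E9.25 WT and 2.09 to 3.71 TPM in E10.5 WT libraries. It passed the filter only through the E10.5 libraries, so no weight is placed on its change of 1.40. In the Gli3-/- comparison Hist3h2ba did not pass the filter. Of 11 replication-independent variants, which are made outside S phase as well, none passed between genotypes (1 at each stage at an unadjusted p below 0.05), and their medians were 0.12 and 0.05.

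Of 15 genes for histone gene transcription and pre-mRNA processing, none passed between genotypes. An unadjusted p below 0.05 (limma) was reached by 5 at E9.25 (22.0% of all genes) and by 1 at E10.5 (19.6% of all genes). The 15 genes had medians of 0.21 and 0.01. In WT, 8 of them rose with stage, against 38.1% of all genes, and their median of 0.29 lay below the 0.34 of all genes. They included Npat (0.74), the cyclin E-CDK2 substrate that drives histone transcription, and Casp8ap2 (0.94), a component of the histone locus body. Without E9.25 WT replicate 2, 4 rose, Npat no longer passed (0.48, adjusted p = 0.0593) and Casp8ap2 gave 0.53. The cap-binding gene Ncbp1 fell by 0.29. Casp8ap2 also rose in Gli3-/- buds (0.92). Of 22 S phase genes none passed between genotypes, with medians of 0.11 and 0.05. An unadjusted p below 0.05 was reached by 5 of them at E9.25 (22.0% of all genes) and by 8 at E10.5 (19.6% of all genes), each time in the higher direction. At E10.5, 7 of the 22 were separate in that direction, against 7.87% of all genes. Of 6 histone chaperone genes none passed either, with 1 and 0 at an unadjusted p below 0.05. The chaperone-associated acetyltransferase gene Hat1 fell with stage by 0.70 in WT and by 0.47 in Gli3-/- buds.

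Markers of several cell types moved with genotype. The summed level of 5 flank and lateral plate genes (Foxf1, Gata4, Gata6, Osr1 and Hand1) was 18.5 to 52.2 TPM in E9.25 WT and 73.5 to 206 TPM in E9.25 Gli3-/- libraries. Foxf1, Gata4 and Osr1 passed the test in the higher direction, against 0.108% of all genes, and also passed without WT replicate 2. Foxf1 did not pass the filter over the WT libraries of both stages. It thus passed the E9.25 filter only through the Gli3-/- libraries, so no weight is placed on its call. At E10.5 the same sum was 6.97 to 10.2 TPM in WT and 7.35 to 19.4 TPM in Gli3-/- libraries, which overlapped. Prrx1, Prrx2, Tbx5, Fgf10 and Twist1, which mark limb mesenchyme, summed to 529.5 to 675 TPM in E9.25 WT and 518 to 760 TPM in E9.25 Gli3-/- libraries, which overlapped. At E10.5 they summed to 666 to 798 TPM in WT and 531 to 579 TPM in Gli3-/- libraries, with no overlap. Of these 5 genes, Prrx1, Prrx2 and Twist1 fell and Fgf10 rose at E10.5 by limma, where 2.93% of all genes fell and 1.84% rose.

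The sum of 6 ectoderm genes at E9.25 was 147 to 218 TPM in WT and 198 to 340 TPM in Gli3-/- libraries. At E10.5 it was 178 to 217 against 267 to 301 TPM, and Fgf8 alone passed, in the higher direction (1.84% of all genes). The sum of 4 muscle progenitor genes was 5.88 to 11.5 against 6.95 to 7.996 TPM at E9.25. At E10.5 it was 39.1 to 47.6 against 25.4 to 35.0 TPM, and Met fell (2.93% of all genes). Both sums were thus separate at E10.5 and overlapped at E9.25. The sum of 5 endothelial genes was 53.0 to 89.8 against 91.9 to 143 TPM at E9.25, without overlap, and it overlapped at E10.5. At E9.25 none of the 5 passed, and 3 had an unadjusted p below 0.05 (limma), against 22.0% of all genes. The sum of 6 erythroid genes overlapped at both stages, and 0 of them passed or reached an unadjusted p below 0.05 (limma). The part of these marker differences in the histone values at either stage was not tested.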

How the data were processed

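RNA was sequenced from 14 forelimb bud libraries in 4 groups, mapped to groups by their titles. The authors aligned 100-base reads with HISAT2 to mm10 and deposited 1 table per library with TPM, FPKM and coverage per gene. The tool that made the tables, its annotation, its use of strand and its handling of reads that match several copies are not given in the sources used here. The FPKM and coverage signal columns that the authors deposited beside TPM served only to estimate depth and reads per gene. Gene IDs on several lines of a table were added up. Other assays of the series were not analysed here.

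No counts were at hand, so limma 3.58.1 (R 4.3.3, moderated with a trend) was run on log2(TPM + 1) for genes with a TPM of 1 or more in 3 or more libraries, over the groups compared, and p-values were adjusted over all genes tested (Benjamini-Hochberg, threshold 0.05). Fold changes on this scale understate those of low genes. Each comparison used 7 libraries (the interaction 14), and p-values measure the spread between these pooled libraries only. The script was tested on simulated data first. Intervals are at the 95% level. TPM within a library sums to a fixed total, so a level is relative to all other transcripts.

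Genes were named if they passed in a genotype or the interaction comparison, were among the 2 highest of their type by mean TPM, or were among the 3 highest or lowest by stage in WT, which gave 19 genes. Other genes named were chosen after their values were seen. The members and gene lists were chosen with earlier results of these data known. Promoter windows came from RefSeq GRCm38.p6 and motifs were searched as exact letters. Tables were handled with Python 3.11.15 and pandas 2.3.3. Alternatives changed the pseudocount (0.1), the filter (none, or a TPM of 5), the scaling (median-of-ratios), the trend, the replicate block, the model (all 14 libraries) and the libraries included.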

Additional observations from a re-analysis of the deposited data

Results flagged for a closer look

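In 2 of 52 groups of 4 libraries examined, over the named Hist1h genes, their sums by type and in all, and the H2A ratio, 1 library stood apart from the other 3 by more than Dixon's critical value allows for 4 samples, and chance alone gives about 1 in 20. Hist1h2bl, an H2B gene, had log2(TPM + 1) values of 2.10, 2.11, 3.11 and 2.15 in the E9.25 Gli3-/- libraries, so replicate 3 was high by 0.944 of the range. Hist1h1c, a linker histone gene, had 2.83, 2.90, 2.82 and 2.32 in the same libraries, so replicate 4 was low by 0.865 of the range.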

How the results depend on the processing

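The median log2 fold change of the H2A genes stayed above that of the other Hist1h genes under every alternative run, at 0.94 to 1.38 against -0.20 to 0.13 at E9.25 and 0.98 to 1.64 against -0.14 to 0.30 at E10.5. Counts of called genes were less stable. At E9.25 the 2 calls (1 higher) became 0 (0 higher) with no filter, 1 (0 higher) with median-of-ratios scaling, 1 (0 higher) without a trend, 9 (8 higher) in 1 model of all 14 libraries, 2 higher with a TPM minimum of 5, and 0 to 7 (0 to 6 higher) as single libraries were left out. At E10.5 the 4 calls became 2 (Hist1h2aj and Hist1h2an) with no filter, and 4 to 6 as single libraries were left out. With stage in WT the 5 calls became 3 with a pseudocount of 0.1, 1 with no filter, 1 with median-of-ratios, 3 without a trend, 9 in 1 model, and 0 to 20 with libraries left out. In Gli3-/- buds the 3 calls became 0, 1 and 1 with no filter, median-of-ratios and 1 model, and 0 to 17 with libraries left out. The interaction gave 0 calls under each alternative. The causes were not tested. Same-numbered libraries did not deviate together (correlations -0.20 to -0.16 at E9.25, -0.18 to 0.15 at E10.5, -0.09 to 0.15 in Gli3-/- and -0.29 to 0.12 in WT), and the numbers are not said to pair them. With the replicate block the counts were 7 (6 higher) at E9.25 and 2 at E10.5 (the calls of Hist1h2ai and Hist1h2ad were lost). With stage the block gave 6 in WT (the calls of Hist1h2bf and Hist1h2bc were lost) and 17 in Gli3-/-. Over all genes it gave 66 calls in place of 20 at E9.25, 164 in place of 747 at E10.5, 4699 in place of 7520 in WT and 138 in place of 348 in the interaction. Over all genes, no filter gave 0 at E9.25 and 391 at E10.5. The joint model gave 1185 and 406. Leaving out single libraries gave 2 to 196 at E9.25, 301 to 680 at E10.5, 5139 to 8305 in WT, 2129 to 4326 in Gli3-/- and 150 to 1433 in the interaction. Directions turned for genes near 0. Under the block, Hist1h3i was 0.0021 at E9.25 and -0.035 at E10.5, Hist1h1e 0.022 at E10.5, and Hist1h4i -0.13 with stage in Gli3-/-. Under median-of-ratios, Hist1h2bk was -0.059 and Hist1h4d -0.088 at E9.25, Hist1h1e 0.021 at E10.5, Hist1h2bm -0.22 and Hist1h3c -0.11 with stage in WT, and Hist1h4i -0.066 in Gli3-/-. A pseudocount of 0.1 gave 0.016 for Hist1h1e at E10.5. With libraries left out, values ran from -0.27 to 0.14 (Hist1h3i), -0.51 to 0.31 (Hist1h2bg) and -0.080 to 0.40 (Hist1h4d) at E9.25. At E10.5 they ran from -0.24 to 0.40 (Hist1h2bl), -0.24 to 0.39 (Hist1h3i), -0.14 to 0.46 (Hist1h2bk), -0.15 to 0.45 (Hist1h2bh), -0.12 to 0.74 (Hist1h2bg), -0.16 to 0.58 (Hist1h2bf), -0.64 to 0.15 (Hist1h4d), -0.42 to 0.32 (Hist1h1e), -0.012 to 0.23 (Hist1h1c) and -0.36 to 0.19 (Hist1h3c). With stage they ran from -0.30 to 0.39 (Hist1h2bm) and -0.41 to 0.053 (Hist1h2bj) in WT and from -0.17 to 0.13 (Hist1h2bm) and -0.13 to 0.16 (Hist1h4i) in Gli3-/-. Median-of-ratios scaling moved the median of all genes at E9.25 from 0.23 to 0.01, and with stage in WT from 0.34 to 0.02. It moved the summed H1 level of E9.25 WT to 14.4 TPM. Of the other alternatives for named genes, 918 kept their direction and side of the threshold, 41 came to pass and 49 no longer passed. Low genes rest on few reads, and values of near-identical copies depend on how their reads were divided.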
